A study of Mus musculus with 36 samples.

Results

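The IL-6 family receptors and STAT3 are described here through 10 genes, chosen by symbol from the 46078 Ensembl genes of the count table: the ligand gene Lif, the receptor genes Il6st, Lifr, Osmr, Il6ra and Il11ra1, the kinase genes Jak1 and Jak2, the transcription factor gene Stat3 and the feedback gene Socs3. This choice was made with earlier results of these data known. All 10 symbols were found, each in 1 row. They were followed in 36 libraries of transformed mouse astrocytes, 18 from female and 18 from male lines. A lot is a litter of its own, and each of lots 6, 7, 8, 11 and 12 gave 1 female and 1 male line, so the design held 10 lines with 3 libraries each in lots 6 and 12 and 4 each in lots 7, 8 and 11.

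All 10 lines had the genotype Nf1-/- DNp53, that is, loss of the neurofibromin gene together with a dominant-negative p53, and all grew in DMEM/F12 with 10% fetal bovine serum and 1% penicillin/streptomycin. No cytokine treatment is given in the labels, and cells with intact Nf1 and p53 were not analysed here. Each combination of lot and sex was a single line, so within a lot the sex and the line cannot be told apart. The libraries of a line are not stated to be separate cultures. The p-values given for single lots, for differences between lots and for differences among lines all come from the same fit of these libraries. They therefore measure the spread between these libraries, which may be technical, and speak only of these lines.

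Cytokines of the IL-6 family signal through receptor complexes that share the chain gp130, the product of Il6st. IL-6 and IL-11 first bind a non-signalling receptor of their own, encoded by Il6ra and Il11ra1, whereas LIF and oncostatin M bring gp130 together with the signalling chains encoded by Lifr and Osmr. The receptor tails carry JAK kinases, which phosphorylate STAT3, and STAT3 in turn switches on Socs3, whose product blocks the receptor. In the brain, astrocytes use this pathway to become reactive and, during development, to begin expressing their own marker genes.

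The libraries held 4358098 to 7562901 counts, and 12654 to 14177 genes were detected in each. A level is given as CPM, a depth-scaled count on TMM-scaled library sizes, and 3 counts, taken as the floor of detection, stood for 0.385 to 0.716 CPM. Because the 3' end of the transcript was counted, CPM are compared between samples for a given gene and not between genes. Of 12 astrocyte markers, 5 averaged over 1 CPM, led by Gja1 at 144 CPM, and Gjb6 had no count. Of 12 microglia and macrophage markers, 2 averaged over 1 CPM and 5 had no count, among them Itgam, Adgre1 and Trem2, and 0 of 5 endothelial and 0 of 5 oligodendrocyte lineage markers did. Of 8 pericyte and smooth muscle markers, 4 averaged over 1 CPM and Kcnj8 and Abcc9 had no count, while Acta2 averaged 6056 CPM. Of 6 fibroblast markers, 3 averaged over 1 CPM, led by Col1a2 at 212 CPM, and Lum had no count. Nf1 stood at 0.667 to 2.60 CPM and Trp53 at 180 to 391 CPM in the line means, which check nothing about the deletion or the mutant protein, since the counted 3' end can lie outside the altered part.

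Most members were called in lot 6. There Lifr and Osmr, which stood near or under the floor in most other lines, had 126 and 281 counts in the female line against 0 and 4 in the male line, and Il6st, Il11ra1, Jak2, Stat3 and Socs3 were also higher than in the male line of the same litter. Il6st was high in the lot 7 female line as well, Il11ra1 differed between the sexes in 4 of the 5 lots but not always in the same direction, and Jak1 was level. The order of the lines therefore differed from member to member, as the plot of levels by library shows.

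**Figure D1:**
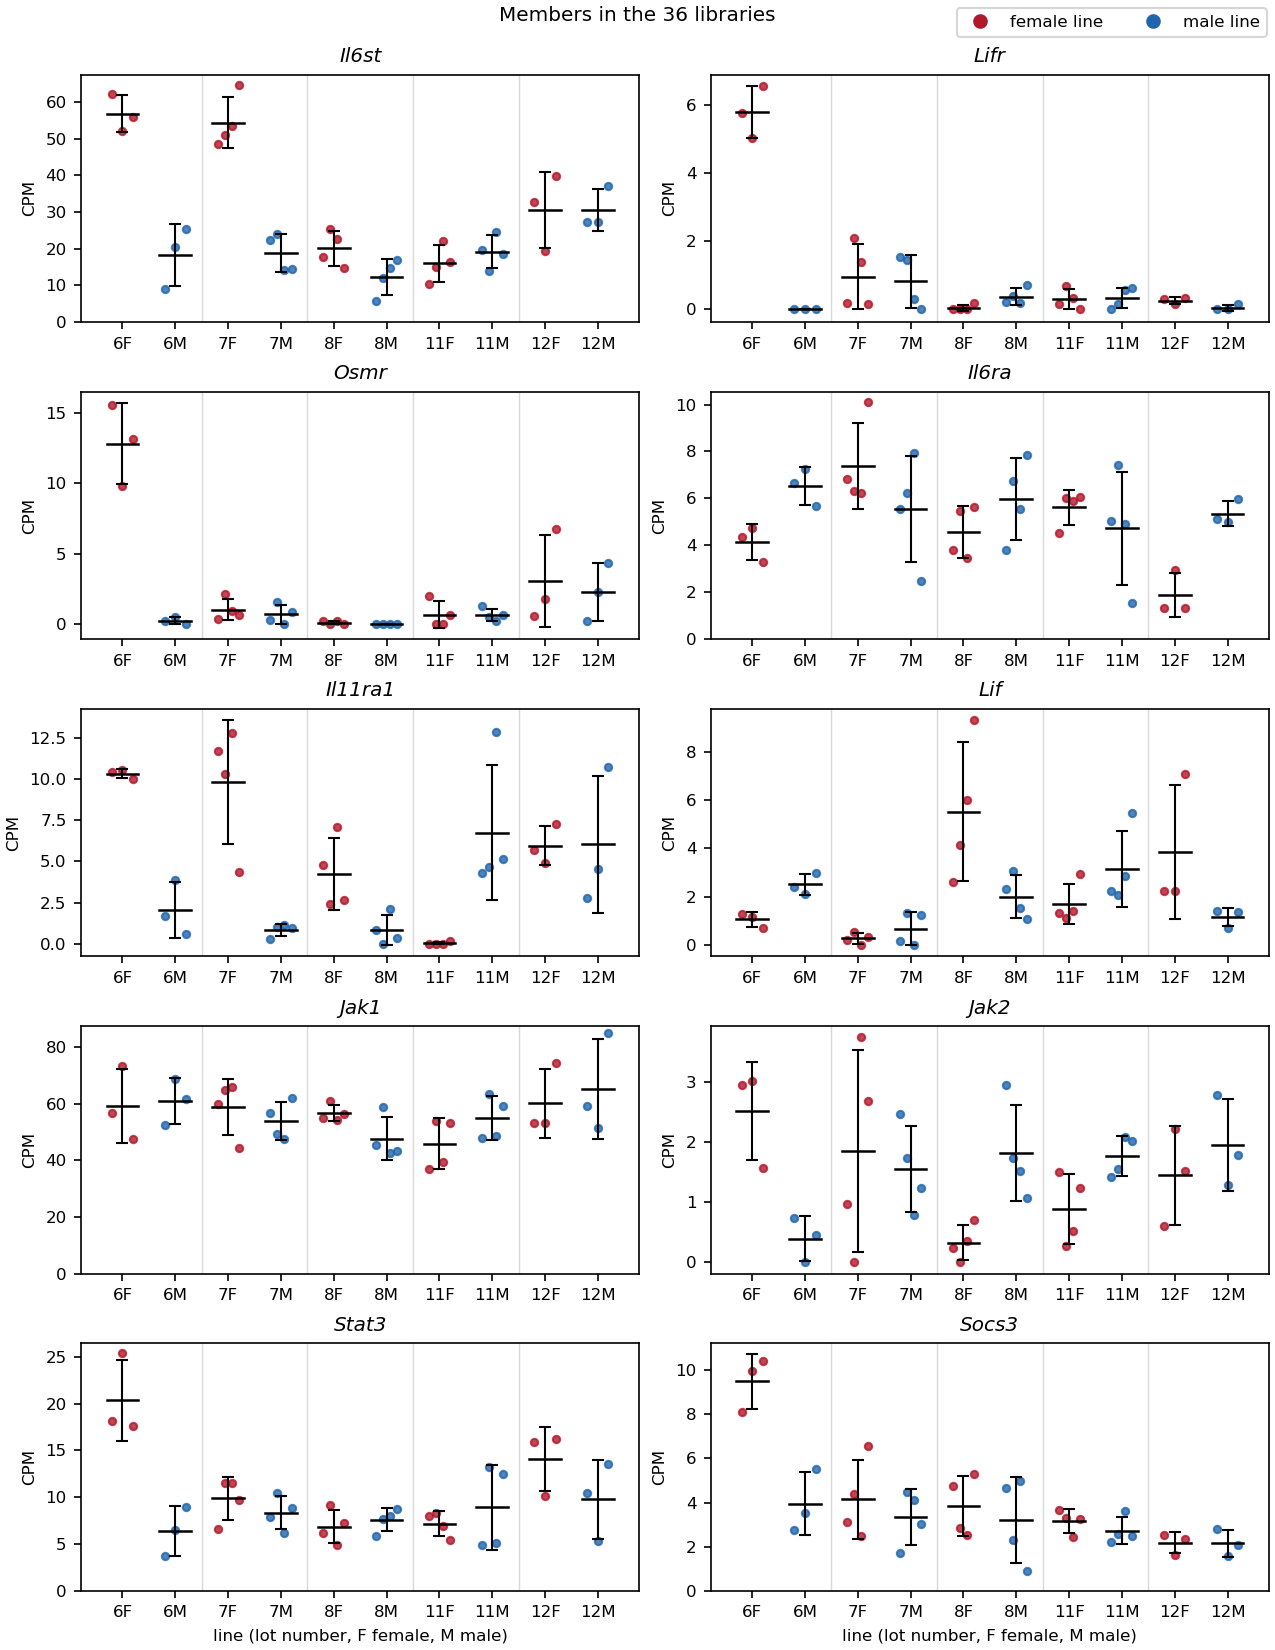
Level of each member in every library. The vertical axes give CPM on a linear scale that starts at or just under 0; the horizontal axes give the lines (lot number, F female, M male). Points are libraries, horizontal bars are line means and error bars are SD over the 3 or 4 libraries. The lot 6 female line stands above all other lines in Lifr (5.80 CPM), Osmr (12.8 CPM), Stat3 (20.4 CPM) and Socs3 (9.49 CPM), and the lot 6 and lot 7 female lines stand above the rest in Il6st.

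Of the ligands, Lif (ENSMUSG00000034394, GRCm38 chr11:4257557-4272514, + strand) encodes leukaemia inhibitory factor, which acts through the LIF receptor and gp130. Its level was highest in the lot 8 female line, with 2.62, 4.14, 6.01 and 9.32 CPM in the female libraries of that lot, against 2.32, 3.08, 1.53 and 1.07 CPM in the male libraries. These groups overlapped, in that the lowest female library lay under the highest male library. In lot 12, the female libraries had 2.24, 2.23 and 7.07 CPM and the male libraries 1.39, 0.713 and 1.34 CPM, which do not overlap. In lot 6 the female libraries were the lower ones, at 0.715 to 1.28 CPM against 2.12 to 2.99 CPM in the male libraries, also without overlap. The lowest line was the lot 7 female line, at 0.264 ± 0.222 CPM (SD, n = 4), of which 1 library had no count.

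By edgeR's quasi-likelihood test the female over male log2 fold change of Lif was 1.47 ± 0.63 (SE) in lot 8 (adjusted p = 0.131) and 1.74 ± 0.75 in lot 12 (adjusted p = 0.236). It was -1.24 ± 0.74 in lot 6, -1.33 ± 0.81 in lot 7 and -0.89 ± 0.62 in lot 11, so no single lot passed the threshold of 0.05. The change did differ between lots, with an adjusted p of 0.0180, which was 0.107 without replicate 4 of lots 7, 8 and 11 and 0.00233 to 0.107 over 42 alternatives. Lif also differed among the 5 female lines (adjusted p = 0.000110), whereas the test among the 5 male lines gave an adjusted p of 0.0694.

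Of the other 11 ligands of the family, 3 had enough counts to be tested, among them Clcf1 and Ctf1. Osm, Il27 and Il31 had no count in any library, and Il6 had 41 counts in all 36 libraries together. Clcf1, the gene of cardiotrophin-like cytokine, passed in no lot but differed among the 10 lines (adjusted p = 0.0184), with 2.96 to 7.26 CPM in the line means. Cntfr, which encodes the CNTF receptor that this cytokine acts on, had no count.

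Il6st (ENSMUSG00000021756, GRCm38 chr13:112464070-112510086, + strand), the shared gp130 chain, was detected above the floor in every library. In lot 6 the female libraries had 62.1, 52.2 and 56.0 CPM, against 9.07, 20.4 and 25.4 CPM in the male libraries. In lot 7 the female libraries had 48.5, 51.1, 53.6 and 64.6 CPM, against 22.3, 24.1, 14.3 and 14.4 CPM in the male libraries. In both lots every female library lay above every male library, and the lowest female library was further above the highest male one than the male libraries were from each other.

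The log2 fold change of Il6st was 1.63 ± 0.31 in lot 6 (adjusted p = 0.000116) and 1.53 ± 0.27 in lot 7 (adjusted p = 0.000103), a ratio of 3.03 and 2.91 on pooled counts. Both calls held in all alternatives run, 13 in lot 6 and 16 in lot 7. The other lots did not show this difference beyond their spread. The lot 8 female libraries had 17.9, 25.5, 22.6 and 14.8 CPM and the male ones 5.70, 12.1, 14.7 and 16.9 CPM (0.70 ± 0.29, adjusted p = 0.115; 0.0380 with no filter on low counts, and 0.0380 to 0.363 over 16 alternatives). Lot 11 had means of 16.0 ± 4.91 CPM (female) and 19.3 ± 4.38 CPM (male; SD, n = 4 each), and lot 12 had 30.6 ± 10.4 CPM (female) and 30.6 ± 5.74 CPM (male; SD, n = 3 each).

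The change in Il6st differed between lots (adjusted p = 0.000405), and the call held in all 43 alternatives. Ordered by line mean, the lot 6 and lot 7 female lines overlapped each other, the gap came between the lot 7 female line and the lot 12 male line, and each further pair of neighbours overlapped. Il6st differed among the 5 female lines (adjusted p = 6.87e-07) and among the 5 male lines (adjusted p = 0.0140), where the lot 12 male line was highest; among the male lines the adjusted p was 0.0882 without replicate 3 of that line, the highest of 42 alternatives, of which the lowest was 3.41e-05.

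Lifr (ENSMUSG00000054263, GRCm38 chr15:7090614-7197489, + strand) encodes the signalling receptor chain for LIF. In lot 6 the female libraries had 5.78, 5.04 and 6.57 CPM, from 45, 35 and 46 counts, and all 3 male libraries had 0. With 3 counts over the group as the floor of the male line, the pooled level was at least 34.3-fold higher in the female line (edgeR adjusted p = 0.000220, called in all 12 alternatives). Lifr passed the filter on low counts only through these female libraries, so this call is not independent evidence. The lot 6 female line stood apart from every other line: the next in order was the lot 7 female line, with 0.195, 2.1, 1.41 and 0.168 CPM, where its male counterpart had 1.54, 1.45, 0.318 and 0 CPM. The remaining lines averaged 0.0440 to 0.375 CPM, at or under the floor of a library.

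Osmr (ENSMUSG00000022146, GRCm38 chr15:6813577-6874969, − strand) encodes the receptor chain that pairs with gp130 for oncostatin M. In lot 6 the female libraries had 15.5, 9.80 and 13.1 CPM, from 121, 68 and 92 counts, against 0.185, 0.531 and 0 CPM in the male libraries, which held 4 counts in all. The pooled level was 57.4-fold higher in the female line, and the log2 fold change was 5.68 ± 1.24 (adjusted p = 0.000635, called in all 12 alternatives). The lot 12 lines came next, with 0.599, 1.78 and 6.74 CPM in the female libraries and 0.232, 2.28 and 4.32 CPM in the male libraries, which overlapped. Lot 7 means were 1.03 ± 0.751 CPM (female) and 0.683 ± 0.696 CPM (male; SD, n = 4 each), and lot 8 held 2 counts in the female line and 0 in the male line.

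Lifr and Osmr lie 215.645 kb apart on chromosome 15, and both were therefore set beside their neighbours. Of the other 9 tested genes within 1 Mb, none was higher in the lot 6 female line and 2 were lower: Fyb, an adaptor gene of blood cells, by a log2 fold change of -0.72 ± 0.18 (adjusted p = 0.00203) and the annotated miRNA gene Gm27529 by -1.25 ± 0.42 (adjusted p = 0.0238). Rictor, a subunit gene of the mTOR complex that lies next to Osmr, had a log2 fold change of 0.68 ± 0.77 and Gdnf, a neurotrophic factor gene beyond Lifr, had -0.22 ± 0.39. Over chromosome 15 the median log2 fold change in lot 6 was -0.05, beside 0.06 over all genes. In lot 12 that chromosome stood apart, with a median of -0.27 beside 0.01 over all genes and 36 genes lower and 0 higher in the female line, and neither Osmr nor Lifr was among them.

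**Figure D2:**
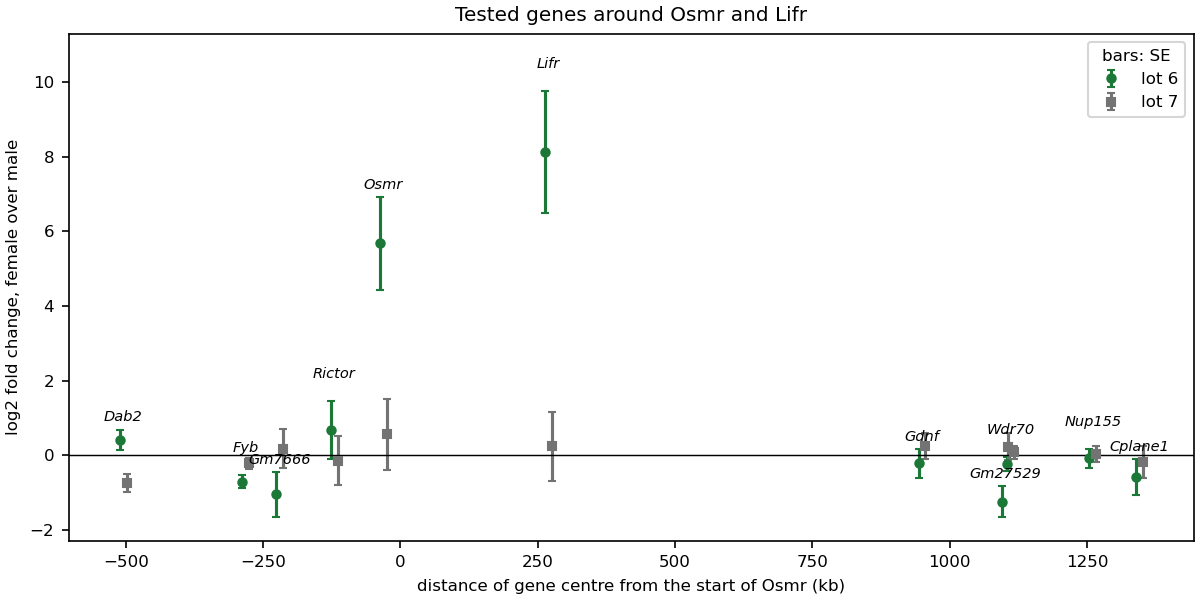
Fold changes of the tested genes around Osmr and Lifr. The horizontal axis gives the distance of a gene's centre from the start of Osmr in kb, and the vertical axis gives the log2 fold change, female over male, with SE as bars, in lot 6 (green circles) and lot 7 (grey squares, moved sideways for clarity). In lot 6 Osmr (5.68) and Lifr (fitted at 8.13, which is no bound since the male line had 0 counts) stand far above the other 9 genes, none of which was called higher.

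Osmr also differed among the male lines (adjusted p = 0.0102), where the lot 12 male line was highest, but the adjusted p was 0.0651 without replicate 3 of that line, the highest of 41 alternatives, of which the lowest was 1.72e-05. The female over male change differed between lots for Lifr (adjusted p = 0.00251, called in all 42 alternatives) and for Osmr (adjusted p = 0.0269). The Osmr call was lost without replicate 4 of lots 7, 8 and 11 or without replicate 1 or 3 of either lot 6 line (0.000287 to 0.0976 over 42 alternatives). The filter on low counts asked for 3 libraries over 1.65 CPM. Lifr had 4, of which 3 were those of the lot 6 female line, so that line had to be high for Lifr to be tested at all.

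Il6ra (ENSMUSG00000027947, GRCm38 chr3:89864059-89913196, − strand) encodes the receptor that binds IL-6 itself. In lot 12 the female libraries had 1.35, 2.97 and 1.35 CPM, against 5.10, 4.99 and 5.96 CPM in the male libraries. Every female library lay under every male one, and the lot 12 female line had the lowest mean of the 10. It stood apart from the next in order, the lot 6 female line at 4.14 ± 0.761 CPM (SD, n = 3), but not from all lines. Its range overlapped those of the lot 11 male line (lowest library 1.56 CPM) and the lot 7 male line (lowest library 2.49 CPM). The log2 fold change was -1.49 ± 0.44 (adjusted p = 0.0494). Equal replicate numbers of the lot 12 lines deviated together, and with the replicate number as a block the log2 fold change was -1.54 with an adjusted p of 0.0638, so the call was lost. It held in 4 of 13 alternatives, with adjusted p from 0.0272 to 0.331, and was also lost without replicate 1 or 3 of the female line and without any replicate of the male line.

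In the other lots Il6ra did not pass, with log2 fold changes from -0.66 ± 0.41 in lot 6 to 0.41 ± 0.35 in lot 7. In lot 6 the female libraries had 4.37, 4.76 and 3.29 CPM and the male libraries 6.67, 7.26 and 5.68 CPM, which do not overlap (adjusted p = 0.261). The highest line was the lot 7 female line, at 7.37 ± 1.83 CPM (SD, n = 4). Il6ra differed among the female lines (adjusted p = 0.00467) and not detectably among the male lines (adjusted p = 0.851).

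Il11ra1 (ENSMUSG00000073889, GRCm38 chr4:41699989-41769474, + strand) encodes the IL-11 receptor. Among the members it had the largest spread between lines relative to that within lines, with a ratio of SDs of log2 CPM of 2.22, beside a median of 0.887 over the 12173 genes tested. In lot 6 it had 10.4, 10.5 and 10.0 CPM in the female libraries, against 1.67, 3.89 and 0.598 CPM in the male libraries. In lot 7 it had 11.7, 10.3, 12.8 and 4.37 CPM in the female libraries, against 0.308, 1.01, 1.11 and 0.970 CPM in the male libraries. In both lots all female libraries were above all male ones.

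In lot 8 the female libraries had 4.77, 2.40, 7.10 and 2.64 CPM and the male libraries 0.844, 0, 2.1 and 0.356 CPM, again without overlap. Lot 11 showed the opposite: 3 of the 4 female libraries had 0 and the fourth 0.155 CPM, which was 1 count, whereas the male libraries had 4.27, 4.65, 12.9 and 5.14 CPM, from 155 counts. In lot 12 the lines overlapped, with 5.94 ± 1.19 CPM (female) and 6.02 ± 4.17 CPM (male; SD, n = 3 each). Il11ra1 was thus the single member that was called higher in the female line in some lots and lower in another.

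The log2 fold changes were 2.33 ± 0.64 in lot 6 (adjusted p = 0.00509), 3.49 ± 0.60 in lot 7 (adjusted p = 6.84e-05) and 2.34 ± 0.63 in lot 8 (adjusted p = 0.0111). The lot 8 call was lost with the libraries of lot 8 fitted alone and without replicate 3 of its female line (0.000989 to 0.0630 over 15 alternatives), and the lot 6 and lot 7 calls held throughout. In lot 11 the pooled level was 166-fold higher in the male line, with a 95% counting interval of 29.3 to 6590 (adjusted p = 1.11e-06, called in all 15 alternatives). The change differed between lots (adjusted p = 9.51e-09).

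Counts of Il11ra1 are uncertain in 2 respects. Its annotated span holds Galt, a galactose metabolism gene on the same strand, and how reads over overlapping genes or near-identical copies such as Il11ra2 (0 counts) were assigned is not stated in the sources used here. Galt took the same direction as Il11ra1 where it passed, with log2 fold changes of 2.17 ± 0.51 in lot 6, 1.94 ± 0.44 in lot 7 and -3.31 ± 0.53 in lot 11 (adjusted p = 0.00122, 0.00216 and 4.12e-05), and 1.32 ± 0.49 in lot 8 (adjusted p = 0.0772). Ccl27a, a chemokine gene that overlaps the end of Il11ra1 on the opposite strand, was higher in lots 6 and 8 (4.30 ± 0.75 and 2.96 ± 0.89) and lower in lot 11 (-2.18 ± 0.58). Within the span and on the opposite strand lie Dctn3, a dynactin subunit gene, and Rpp25l. Dctn3 was higher in lots 7 and 8 (0.35 ± 0.11 and 0.61 ± 0.11, adjusted p = 0.0373 and 0.000237) and had -0.05 in lot 11, while Rpp25l passed in no lot, with log2 fold changes from -0.16 to 0.23. Chromosome 4 as a whole had a median log2 fold change of 0.22 in lot 6 and 0.19 in lot 8, beside 0.06 and 0.00 over all genes.

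**Figure D3:**
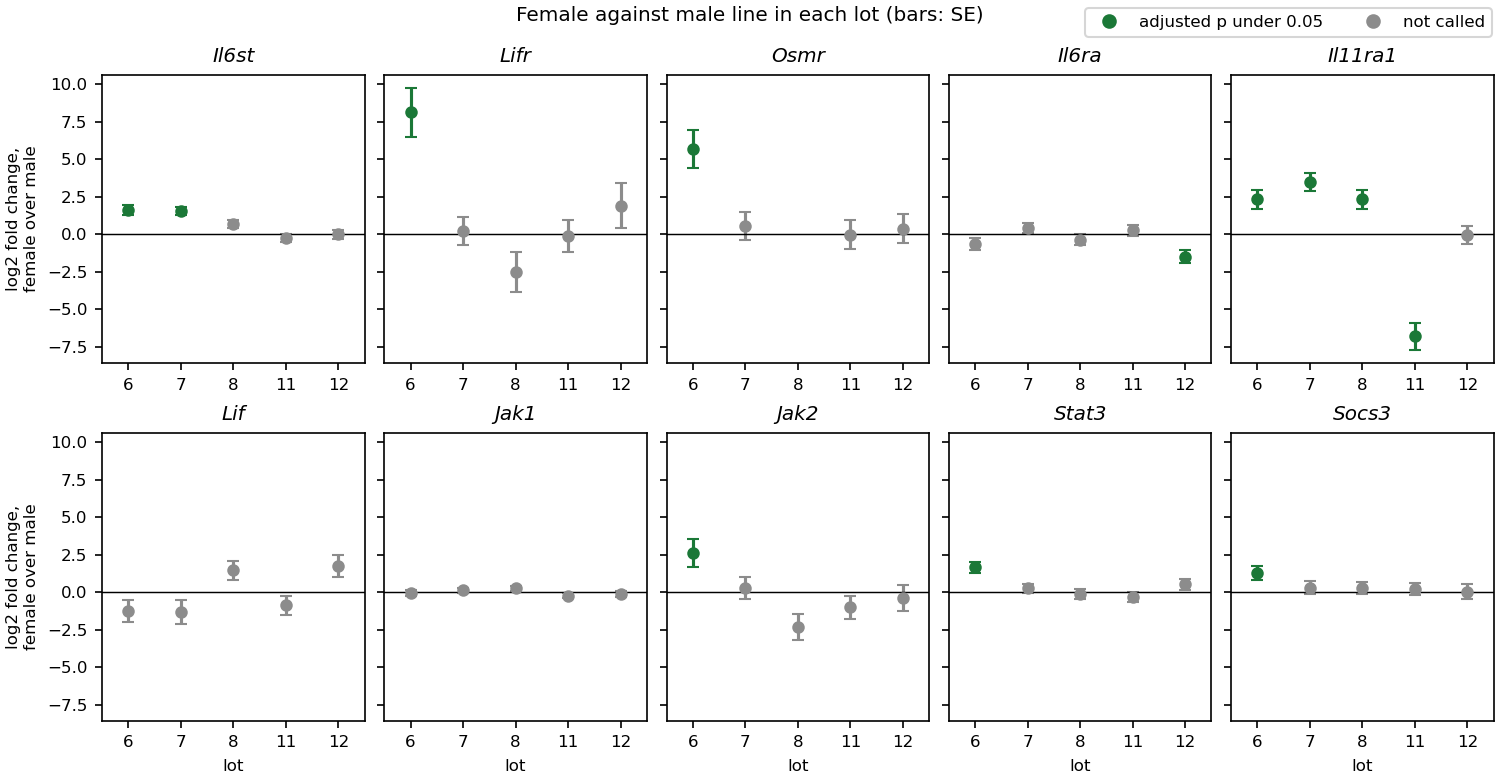
Female over male log2 fold change of each member in the 5 lots, on a shared vertical axis, with SE as bars. Green points passed an adjusted p of 0.05 and grey points did not; Osmr in lot 8 is left out because both lines were at or under the floor, and the fitted Lifr value in lot 6 (8.13) is no bound. Il11ra1 shows called points on both sides of 0, and Jak1 runs from -0.25 to 0.25.

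Jak1 (ENSMUSG00000028530, GRCm38 chr4:101152367-101265282, − strand), the kinase held to be most needed for gp130 signalling, was the steadiest member. The lowest line mean was 46.0 ± 8.92 CPM (lot 11 female) and the highest 65.2 ± 17.6 CPM (lot 12 male), and every neighbouring pair in that order overlapped. Its fold changes ran from -0.25 ± 0.17 in lot 11 to 0.25 ± 0.17 in lot 8 on the log2 scale. Neither the test among the 10 lines (adjusted p = 0.230) nor that of the difference between lots (adjusted p = 0.411) passed, and its spread between lines was 0.620 of that within lines.

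Jak2 (ENSMUSG00000024789, GRCm38 chr19:29251828-29313080, + strand), the second kinase of the pathway, had few counts. In lot 6 the female libraries had 2.95, 3.03 and 1.57 CPM and the male libraries 0.741, 0 and 0.448 CPM, while in lot 8 the female libraries had 0.239, 0, 0.364 and 0.704 CPM and the male libraries 2.95, 1.73, 1.53 and 1.07 CPM. In neither lot did the groups overlap, and the directions were opposite.

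Of these, the lot 6 change passed (log2 fold change 2.61 ± 0.95, adjusted p = 0.0372) and the lot 8 change did not (-2.35 ± 0.87, adjusted p = 0.0731; 0.0438 by DESeq2, and 0.0438 to 0.182 over 15 alternatives). The lot 6 call held in 5 of 12 alternatives, with adjusted p from 0.0167 to 0.158, and was lost, among others, without replicate 1 or 2 of the female line or replicate 2 or 3 of the male line. The difference between lots had an adjusted p of 0.0305, which no longer passed without any of the same 4 libraries, without replicate 1 of the lot 8 male line or under the replicate block (0.00493 to 0.110 over 42 alternatives).

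Of the 8 other JAK and STAT genes listed, 5 were tested. Stat6, the factor of IL-4 and IL-13 signalling, was lower in the female line in lots 6, 7 and 11 (-2.18 ± 0.78, -2.43 ± 0.56 and -2.35 ± 0.52) and higher in lot 8, at 14.6 ± 5.59 CPM, where the male line had 0.563 ± 0.733 CPM (SD, n = 4 each; 4.62 ± 0.66, adjusted p = 3.18e-06). Stat5b, a growth hormone and cytokine factor, was higher in the lot 8 female line (1.74 ± 0.47, adjusted p = 0.0105).

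Stat3 (ENSMUSG00000004040, GRCm38 chr11:100885098-100939540, − strand) and Socs3 (ENSMUSG00000053113, GRCm38 chr11:117966079-117970047, − strand) follow, the factor and the feedback gene of the pathway. The bases in front of their start sites, and of Il6st, are shown from RefSeq's promoter windows on GRCm38.p6, cut back to the stretch outside annotated exons, because these genes were called higher together in the lot 6 female line. RefSeq's start for Socs3 lies inside the span that GENCODE gives the gene, so the Socs3 stretch is part of an intron of a longer annotated transcript. The windows were searched for TTCNNNGAA, the core of the STAT binding site, which reads the same on both strands. Capitals mark the match.
Socs3 (chr11:117969452-117969616, − strand): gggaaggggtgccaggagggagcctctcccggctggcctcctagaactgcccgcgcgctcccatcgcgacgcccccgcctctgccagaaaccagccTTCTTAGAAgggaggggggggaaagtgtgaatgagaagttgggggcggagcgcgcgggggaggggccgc
Stat3 (chr11:100939541-100939790, − strand): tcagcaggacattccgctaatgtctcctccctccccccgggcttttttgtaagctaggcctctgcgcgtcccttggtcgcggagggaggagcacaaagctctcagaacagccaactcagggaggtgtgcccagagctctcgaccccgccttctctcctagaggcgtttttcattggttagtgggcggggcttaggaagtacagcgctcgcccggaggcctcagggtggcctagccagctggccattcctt
Il6st (chr13:112463820-112464069, + strand): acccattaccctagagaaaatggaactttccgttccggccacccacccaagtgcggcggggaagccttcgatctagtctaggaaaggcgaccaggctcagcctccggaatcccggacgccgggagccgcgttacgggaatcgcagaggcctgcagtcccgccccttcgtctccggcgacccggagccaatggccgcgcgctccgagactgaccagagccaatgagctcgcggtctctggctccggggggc
The Socs3 stretch, 250 to 86 bases before the start, held 1 match 154 to 146 bases before it. In the whole windows of 300 bases, 1 of the 12 windows of the 10 members held a match, and 8.30% of 32851 RefSeq windows did. A match is a description of letters, and its absence from the Stat3 and Il6st windows covers these windows alone.

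Stat3 had 18.1, 25.4 and 17.6 CPM in the lot 6 female libraries, against 3.70, 6.55 and 8.97 CPM in the male libraries. No library of the female line came near the range of the male line. The log2 fold change was 1.65 ± 0.37 (adjusted p = 0.000644, called in all 13 alternatives). The next line in order was the lot 12 female line, with 15.9, 10.1 and 16.2 CPM, where its male counterpart had 10.4, 5.28 and 13.6 CPM; these overlapped (0.53 ± 0.36, adjusted p = 0.536).

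In lot 7, where Il6st was as different as in lot 6, the Stat3 libraries had 6.65, 11.6, 11.6 and 9.75 CPM (female) and 7.86, 10.4, 6.19 and 8.87 CPM (male). The groups overlapped widely (0.25 ± 0.32, adjusted p = 0.710). Means were 6.87 CPM (female) and 7.59 CPM (male) in lot 8, and 7.19 CPM (female) and 8.94 CPM (male) in lot 11. The change in Stat3 differed between lots (adjusted p = 0.0134), though not without replicate 2 of the lot 6 female line, without replicate 1 of the lot 6 male line or without replicate 4 of lots 7, 8 and 11 (0.00496 to 0.0726 over 43 alternatives). Stat3 differed among the female lines (adjusted p = 0.000483) and not detectably among the male lines (adjusted p = 0.661).

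Socs3 had 8.09, 9.94 and 10.4 CPM in the lot 6 female libraries, against 2.78, 3.54 and 5.53 CPM in the male libraries, without overlap. All other lines averaged 2.15 to 4.14 CPM, so the lot 6 female line stood apart from the rest of the order. The log2 fold change in lot 6 was 1.25 ± 0.46 (adjusted p = 0.0404). This call held in 6 of 13 alternatives, with adjusted p from 0.0160 to 0.160, and was lost with no filter, under the replicate block, without any of the 3 female libraries and without replicate 1 or 2 of the male line. In the other lots the log2 fold change was 0.04 to 0.31, and the difference between lots had an adjusted p of 0.532.

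Of the 17 other inhibitors and adaptors listed, all were tested, and 3, 1, 2, 1 and 0 passed in lots 6, 7, 8, 11 and 12, where 27.6, 10.8, 11.4, 4.33 and 3.80% of all genes tested passed. Socs1, a feedback inhibitor best known from interferon signalling, was lower in the female line in lots 6, 7 and 8, at 0.879, 1.45 and 1.68 CPM against 5.71, 5.40 and 5.34 CPM in the male lines (log2 fold changes -2.67 ± 0.66, -1.87 ± 0.55 and -1.65 ± 0.56; adjusted p = 0.00206, 0.0217 and 0.0467). In lots 11 and 12 the values were -0.75 ± 0.54 and -0.76 ± 0.68, which did not pass. Socs2, the inhibitor of growth hormone signalling, was higher in the female line in lots 6 and 8 (1.27 ± 0.42 and 1.97 ± 0.40) and lower in lot 11 (-1.60 ± 0.39). Ptpn11, whose product SHP2 binds gp130, was higher in the lot 6 female line, at 128 ± 16.1 against 81.8 ± 16.2 CPM (0.64 ± 0.16, adjusted p = 0.00241).

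Taking the members by lot, 7 of 10 were called higher in the lot 6 female line and 0 lower, where 27.6% of the 12173 genes tested were called, 13.5% higher and 14.0% lower. The libraries of the lot did not overlap for 9 of 10 members, where 42.6% of all genes did not. Of these 9, Lif and Il6ra were lower in the female line and were not called. Since Lifr could be tested only through the lot 6 female line, where it was high, its place in these counts is no evidence about the pathway. The median log2 fold change of the 10 members was 1.64 in lot 6, beside 0.06 for all genes. All members were chosen with earlier results of these data known, so these counts and this median are not independent evidence.

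In lot 7, 2 of 10 members were called, Il6st and Il11ra1, both higher, where 10.8% of all genes were called, 5.41% higher and 5.42% lower, and the same 2 had no overlap, where 16.1% of all genes had none. In lot 8, 1 of 10 was called, Il11ra1 as higher, where 11.4% of all genes were called, 6.41% higher and 4.99% lower. There 3 had no overlap, Il11ra1 higher and Lifr and Jak2 lower (16.0% of all genes). For Lifr this rests on 1 count in the female and 8 counts in the male line, around the floor of detection. In lot 11, 1 of 10 was called, Il11ra1 as lower, where 4.33% of all genes were called, 1.52% higher and 2.81% lower, and 1 had no overlap (10.3%). In lot 12, 1 of 10 was called, Il6ra as lower, where 3.80% of all genes were called, 1.74% higher and 2.06% lower. There 2 had no overlap, Il6ra lower and Lif higher (16.5%). Outside lot 6 the calls thus concerned 1 or 2 members a lot, and the median log2 fold change of the 10 members was 0.28, 0.26, -0.26 and 0.02 in lots 7, 8, 11 and 12.

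The female over male change differed between lots in 8 of 10 members, all but Jak1 and Socs3, where 29.9% of all genes did. Among the 10 lines 8 of 10 members differed, all but Jak1 and Jak2, where 51.8% of all genes did. Among the 5 female lines the same 8 differed (42.0% of all genes), and among the 5 male lines 4 did, Il6st, Lifr, Osmr and Il11ra1 (30.7% of all genes). Lifr was tested only through the lot 6 female line, so its place in the counts that include that line is no evidence about the pathway. The other members, too, were chosen with earlier results of these data known, so none of these counts is independent evidence. The Lifr call among male lines, at an adjusted p of 0.0446, held in 26 of 41 alternatives (0.0133 to 0.111). That call was lost, among others, without any single library of lot 6.

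Across the 5 lots, with the lines summed and the lot as a block, 0 of 9 tested members and 0.0% of the 12010 genes tested passed edgeR's quasi-likelihood test. At an unadjusted p under 0.05 there were 841 genes, 7.00% of those tested, and 0 members. Il6st came nearest, with 35.6 ± 19.0 CPM over the female lines and 19.9 ± 6.63 CPM over the male lines (SD, n = 5 each), a log2 fold change of 0.70 ± 0.31, above 0 in 3 of 5 lots (unadjusted p = 0.0521, adjusted p = 0.695). With the libraries fitted singly by limma voom and the line as a random block, 4.11% of genes were called, Il6st among them (adjusted p = 0.0298, the lowest of 12 alternatives, which reached 0.975), and by DESeq2 on the line sums 0.5% of genes were called and 0 members. Lifr had too few counts to be tested here.

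Over the 10 lines, Stat3 was set against 5 other members and Osmr against Lifr, on log2 CPM of the line sums, with permutation p-values adjusted over these 6 relations. The lots pair the lines, so the 10 points are not fully independent. Stat3 rose with Osmr, with Pearson's r = 0.88 (p = 0.000560, adjusted p = 0.00336) and Spearman's rho = 0.89 (p = 0.00131, adjusted p = 0.00786), and r was 0.87 without the 2 lines farthest from the median of Osmr. With Il6st r was 0.77 (p = 0.0113, adjusted p = 0.0339; rho = 0.66, p = 0.0438, adjusted p = 0.0876), and 0.69 without the lot 6 and lot 7 female lines. With Jak2 r was 0.67 (p = 0.0327, adjusted p = 0.0490; rho = 0.77, p = 0.0127, adjusted p = 0.0381), and 0.60 without the lot 8 female and lot 6 male lines.

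The relation of Stat3 with Lifr, at r = 0.73 (p = 0.0202, adjusted p = 0.0403; rho = 0.61, p = 0.0664, adjusted p = 0.0996), rested on the lot 6 lines, since r was 0.15 without them. That of Stat3 with Socs3 was not detectable (r = 0.42, p = 0.227; rho = -0.05, p = 0.891, adjusted p = 0.891), and r was -0.68 without the lot 6 female and lot 12 male lines. Osmr and Lifr gave r = 0.57 (p = 0.0876, adjusted p = 0.105; rho = 0.39, p = 0.263, adjusted p = 0.316), and 0.32 without the lot 6 female and lot 8 male lines. On deviations from the lot means, r was 0.71 for Il6st, 0.90 for Osmr, 0.96 for Lifr, 0.75 for Jak2 and 0.84 for Socs3, each with Stat3, and 0.87 for Osmr with Lifr. In these deviations the lot 6 pair was farthest out, and without that pair r was 0.28, 0.07, 0.70, 0.34, -0.05 and -0.59 in the same order. On the levels themselves, without both lot 6 lines, none of the 6 values of Pearson's r had an adjusted p under 0.05 (0.172 to 0.988, n = 8, permutation test). By Spearman's rho the relation of Stat3 with Osmr held there, at 0.88 (permutation p = 0.00755, adjusted p = 0.0453), and the other 5 did not, with adjusted p from 0.247 to 0.977.

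**Figure D4:**
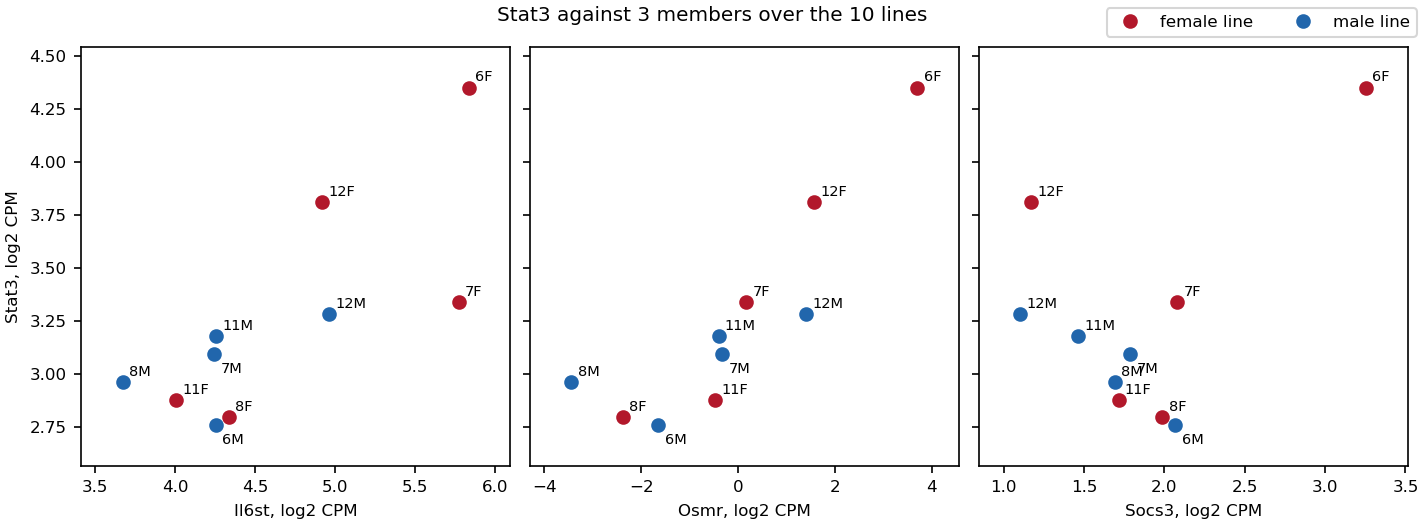
Stat3 against Il6st, Osmr and Socs3 over the 10 lines. Axes give log2 CPM of the line sums on TMM-scaled library sizes with a prior count of 2; red points are female lines and blue points male lines, labelled by lot and sex. Stat3 rises with Osmr (r = 0.88), whereas the Socs3 panel shows the lot 6 female line alone at the upper right.

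Restricting to genes that averaged 3 or more in log2 CPM, those whose levels over the 10 lines were most like a member's are given as a description, with no p. For Il6st these were Gpsm1 (r = 0.96), Fam234a (0.95), Cebpd (0.95), Lrpap1 (0.94) and Rabac1 (0.94), and 35 of 6463 genes reached 0.9. For Osmr they were Pik3ip1 (0.94), Tagln (0.94), Zfr (0.94), Sdc2 (0.94) and Rsu1 (0.94), with 28 genes at 0.9 or more. For Stat3 they were Fopnl (0.98), Dpp7 (0.94), Dnajb14 (0.94), Gm2a (0.93) and Aktip (0.93), with 13 such genes. Lifr had 9 such genes, led by Vps26c (0.95), and Socs3 had 10, led by Wdr35 (0.96).

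Tagln, an actin-binding protein of contractile cells, is a pericyte and smooth muscle marker. The summed level of that list, led by Acta2, was 17094 CPM in the female against 5318 CPM in the male line of lot 6, and 9111 against 1844 CPM in lot 7, the lots in which Il6st was called. It was 2350 against 2312 CPM in lot 8, 5667 against 5012 CPM in lot 11 and 9896 against 12610 CPM in lot 12. Of its 4 tested markers, 2 were called higher and 0 lower in lot 6, 3 and 1 in lot 7, 1 and 1 in lot 8, and 0 in lots 11 and 12. The fibroblast list summed to 53.9 CPM in the lot 6 female against 689 CPM in the male line, with 0 of 4 tested markers called higher and 2 lower. Lot 7 went the other way, at 70.2 against 37.0 CPM, with 1 called higher and 0 lower. The sums were 503 against 389 CPM in lot 8, 167 against 311 CPM in lot 11 and 257 against 738 CPM in lot 12. In lots 8, 11 and 12, 0 were called higher and 1, 0 and 1 lower. The astrocyte list, whose sum was led by Gja1, stood at 116 and 243 CPM in the lot 6 female and male lines. Over all lines it stood at 110 to 243 CPM. Of its 6 tested markers 1 was called higher and 1 lower in lot 6, with a median log2 fold change of 1.14. The part of these markers in the members' differences was not tested, and in such bulk samples fewer cells of a type and less RNA per cell cannot be told apart.

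Of 26 STAT3 target genes listed, 20 were tested in the lots. In the female line of lot 6, 5 were called higher and 3 lower, in lot 7, 5 and 1, in lot 8, 3 and 0, and in lots 11 and 12, 1 and 0 each. Of all genes tested, 13.5% were higher and 14.0% lower in lot 6, 5.41 and 5.42% in lot 7, 6.41 and 4.99% in lot 8, 1.52 and 2.81% in lot 11, and 1.74 and 2.06% in lot 12. The median log2 fold change of the 20 was 0.12, 0.17, -0.05, 0.00 and -0.02 in lots 6, 7, 8, 11 and 12, beside 0.06, 0.01, 0.00, -0.01 and 0.01 for all genes. The list was chosen with earlier results of these data known, and its direction is not independent evidence.

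Cebpd, a transcription factor gene of acute-phase responses, had 21.2 ± 3.80 CPM in the lot 6 female line, while the male line had 5.54 ± 0.512 CPM (SD, n = 3 each; log2 fold change 1.93 ± 0.31, adjusted p = 6.46e-06). In lot 7 it had 19.6 ± 3.23 and 6.46 ± 1.38 CPM (SD, n = 4 each; 1.60 ± 0.26, adjusted p = 3.57e-05), so it was high in the same female lines as Il6st. In the other lots its log2 fold change was -0.72 to -0.06 and did not pass. Fos, an immediate early gene, had 177 counts in the lot 6 female line and 0 in the male line, at least 48.2-fold higher in the female line with 3 counts over the group as the floor (adjusted p = 0.000160).

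Other targets moved differently. Timp1, a secreted inhibitor of metalloproteinases, was lower in the lot 6 female line (log2 fold change -0.83 ± 0.16, adjusted p = 0.000131) and higher in the lot 12 female line, at 5586 ± 1440 CPM against 2099 ± 426 CPM (1.41 ± 0.16, adjusted p = 1.96e-07). Ccnd1, the cyclin D1 gene, was lower in the lot 7 female line (-1.16 ± 0.15) and higher in lots 8 and 11 (0.58 ± 0.15 and 0.55 ± 0.15). Vegfa, an angiogenic growth factor gene, was higher in the lot 7 female line (2.56 ± 0.55, adjusted p = 0.00132). Junb was higher in lots 6, 7 and 8 (0.53, 0.45 and 0.69), and Il4ra, a cytokine receptor gene, in lot 8 (0.89 ± 0.23).

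**Figure D5:**
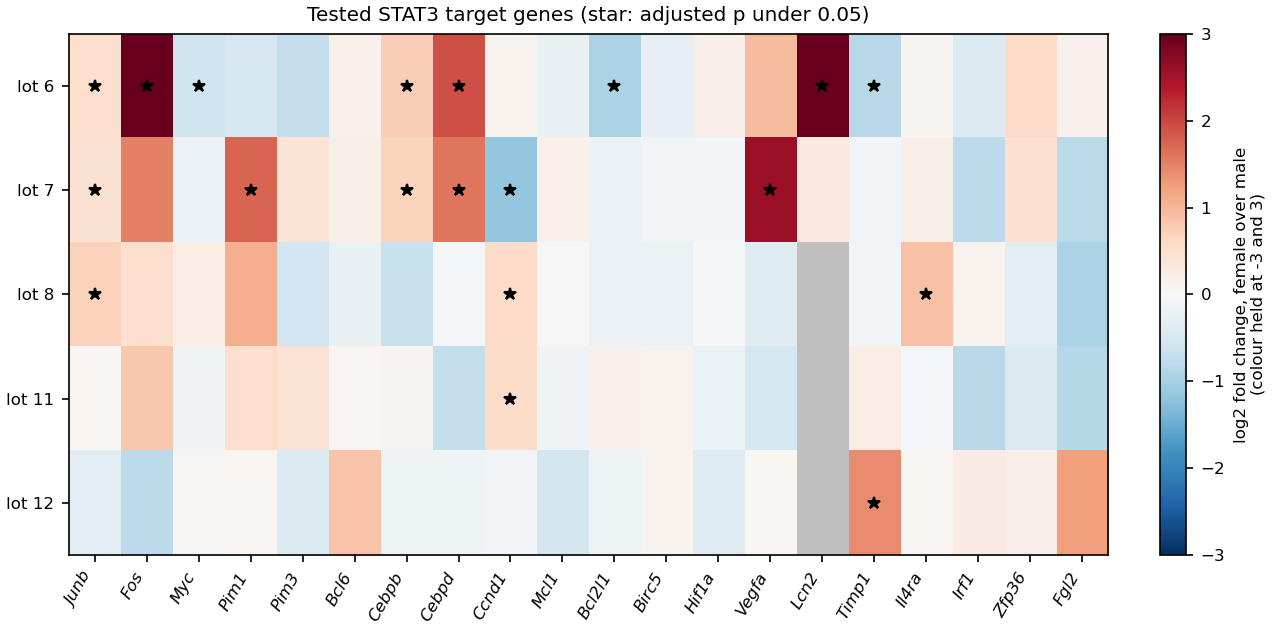
Female over male log2 fold change of the 20 tested STAT3 target genes (columns) in the 5 lots (rows). Red is higher in the female line, blue lower, with the colour held at -3 and 3; stars mark an adjusted p under 0.05, and grey cells are genes with both lines at or under the floor. Of the called cells, 8 lie in lot 6 and 6 in lot 7, and Cebpd is called in both.

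Stat3 and Socs3 are both on chromosome 11, where the median log2 fold change in lot 6 was -0.25, beside 0.06 over all genes, with 62 genes higher and 236 lower of 986 tested. Both were higher in the female line in that lot, against the direction of most called genes of their chromosome. Lif, also on chromosome 11, went the other way in that lot, with a log2 fold change of -1.24 ± 0.74 that did not pass. On library totals alone, without scaling factors, the median over all genes in lot 6 was 0.29 and the split of called genes 2444 higher and 1105 lower, against 1644 higher and 1710 lower with TMM.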

How the data were processed

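Polyadenylated RNA of 36 libraries was profiled by BRB-seq, with sample barcodes and molecular identifiers, per the labels' protocols. The authors deposited raw counts per Ensembl gene, per the labels, with whole-number values only. Tools listed in the submitters' processing notes are cutadapt 2.10, STAR 2.7.6a and Subread 2.0.2, with the build GRCm38. Whether identifiers were collapsed, and the strand setting of the counting, are not given in the sources used here, so floors and counting intervals cover counting error only, and counts of overlapping or antisense genes are uncertain: Stat3 overlaps the end of Stat5a, Jak1 that of Raver2, and Il6ra the antisense gene Gm42809. Of 46078 identifiers, 45229 matched GENCODE M21, with 0.0295% of counts on the remaining 849. The mitochondrial share was 0.251 to 0.775% per library. Within lines, 48 library pairs were compared, with 0 identical and chi-square values of 5.47 to 22.3 divided by their degrees of freedom.

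Counts were fitted with edgeR 4.0.16 (quasi-likelihood test, TMM, filterByExpr with a minimum of 10 counts) in R 4.3.3: the 36 libraries with 1 coefficient per line (12173 genes), and the 10 line sums with lot and sex (12010 genes). Fold changes (log2, with SE) have the female line on top, and p-values were Benjamini-Hochberg adjusted over all genes tested at a threshold of 0.05. The method was tested on simulated data. Correlations used 100000 permutations, 2-sided, in scipy 1.17.1; limma 3.58.1, DESeq2 1.42.0, pandas 2.3.3, numpy 2.4.6, matplotlib 3.10.9 and Python 3.11.15 served the rest.

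The members and the gene lists were chosen with earlier results of these data known. The text names all members, up to 3 genes of smallest p per list and comparison, and the 5 genes most like a member; some of these are not reported here. Alternatives were DESeq2's size factors, library totals, no filter, a minimum of 10 counts in every line, DESeq2, limma voom, no lot block, the lot alone, a replicate block and leaving out libraries or lots. Replicate numbers paired the sexes in lot 12, where the 3 same-number pairs had residual correlations of 0.131 to 0.227, against -0.026 to 0.092 over the 15 pairs of the other lots. Receptor protein sequences were not used here.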

Additional observations from a re-analysis of the deposited data

Results flagged for a closer look

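In 79 groups of 4 or 5 values, a library within a line or a line within a sex, the end value was tested for a wide gap to the next, and 11 groups had such a gap. Chance gives it in about 1 in 20 groups of normally distributed values. Sparse counts need not keep that rate, and a line with a single count in 1 library always shows such a gap. The number of groups found is therefore no evidence of an excess. Among lines of the same sex, the lot 6 female line was far above the other female lines in Lifr (5.80 CPM), Osmr (12.8 CPM) and Socs3 (9.49 CPM), the lot 6 male line was far under the other male lines in Jak2 (0.396 CPM), and the lot 11 female line was far under the other female lines in Jak1 (46.0 CPM). Among libraries of the same line, replicate 4 was far above the others in the lot 7 female line for Il6ra (10.1 CPM), in the lot 11 female line for Lif (2.95 CPM), and in the lot 8 female line for Lifr and the lot 11 female line for Il11ra1, each with a single count (0.176 and 0.155 CPM). Replicate 3 of the lot 11 male line was far above the others in Il11ra1 (12.9 CPM), and replicate 1 of the lot 11 female line far under them in Il6ra (4.51 CPM).

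The female over male change differed between lots by edgeR's test of that difference in 8 members. The adjusted p was 9.51e-09 for Il11ra1, 0.000405 for Il6st, 0.00251 for Lifr, 0.0134 for Stat3, 0.0180 for Lif, 0.0269 for Osmr, 0.0305 for Jak2 and 0.0488 for Il6ra. The Il6ra call held in 11 of 43 alternatives, with adjusted p from 0.0211 to 0.164. Lifr could be tested only because the lot 6 female line was high.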

How the results depend on the processing

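Over the members' results in all comparisons, 552 of 574 values under other scalings, filters, tools or designs kept their direction and their side of the threshold, 16 lost a call and 6 gained one; with a library, lot or replicate number left out, 1835 of 1915 kept both, 77 lost a call and 3 gained one. None of these called values changed sign. The number of genes called in lot 7 was 878 to 1130 with libraries left out, against 1319. It was lowest without replicate 4 of lots 7, 8 and 11, left out together. In lot 12 it was 116 with the libraries of the lot alone, against 463, and 228 to 731 with single libraries left out: 228, 265 and 731 without replicate 1, 2 and 3 of the male line and 281 without replicate 3 of the female line. Across lots 0 genes were called, against 3 with no filter, 1 with no lot block, 494 with limma voom and 60 with DESeq2. Without the lot 6 lines, an alternative chosen after seeing the data, r with Stat3 was 0.62 for Il6st, 0.76 for Osmr, 0.15 for Lifr, 0.53 for Jak2 and -0.58 for Socs3, none with an adjusted p under 0.05; by Spearman's rho, Osmr passed (0.88, permutation adjusted p = 0.0453). On means of the libraries' log2 CPM, r of Osmr with Lifr was 0.76 (adjusted p = 0.0442). Il11ra1 in the lot 6 female line was 11.0 CPM on library totals, against 10.3 CPM. On library totals the called genes split into 807 higher and 534 lower in lot 7 (659 and 660 with TMM), 1017 and 465 in lot 8 (780 and 608) and 274 and 205 in lot 12 (212 and 251). With the replicate number as a block, 3553, 1684, 1708, 668 and 667 genes were called in lots 6, 7, 8, 11 and 12 and 4000 for the difference between lots; in lots 6, 7, 8 and 11 the samples share only a number. The block across lots was not run. The cause of these differences was not tested. Lifr lay at or under the floor of a library in most lines, where depth limits what can be detected.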
